A study of Homo sapiens with 12 samples.

Results

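The genes described are 10 secreted cytokines and chemokines known as outputs of oncogenic RAS signalling: the interleukins IL6, IL1A and IL1B, the IL-6 family member LIF, the chemokines CXCL8, CXCL1, CXCL2, CXCL3 and CXCL5, and the CC chemokine CCL2. They were chosen by symbol, and all 10 were found among the 60603 genes of the count table. Sequencing of poly(A) RNA gave 12 libraries of T24, an established human bladder carcinoma line that carries an oncogenic HRAS allele. The study is about AlissAID, an inducible system that degrades endogenous proteins without a tag. The cells fell into 4 groups of 3 libraries each, written here as WT, WT with inducer, NS1 and NS1 with inducer. WT and NS1 are the genotype labels, and the inducer is 5-Ad-IAA, an auxin analog that the treated cells of both genotypes received and the untreated cells of both did not. All groups were grown in the same serum-supplemented medium. The labels do not spell out NS1, and they say neither whether the NS1 line is 1 clone nor whether replicates were separate cultures. The p-values below therefore measure the spread between these libraries, which may be technical.

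These genes belong to a shared inflammatory circuit. IL-1 alpha and IL-1 beta act on the IL-1 receptor and switch on NF-kB, which with AP-1 and C/EBP factors drives transcription of IL6 and of the CXCL chemokines. CXCL8, CXCL1, CXCL2, CXCL3 and CXCL5 carry the ELR motif, bind the receptor CXCR2 (CXCL8 also CXCR1) and draw neutrophils. IL6 and LIF signal through the shared receptor subunit gp130 (IL6ST) to STAT3, and CCL2 draws monocytes through CCR2. Carcinoma cells with active RAS are known to secrete several of them, and they are part of the secretome of senescent cells.

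The promoters of the chemokines and of IL6 share a motif of the NF-kB family. The motif GGNNTTTCC, searched on both strands, was present in the promoter windows of 6 of the 8 genes with a RefSeq entry, namely CXCL8, CXCL1, CXCL2, CXCL3, CXCL5 and IL6, and in neither IL1A nor IL1B. Each searched window ran 250 bases before the start, and 5.48% of 35116 such windows in the RefSeq table held the motif. The last 150 bases before the start are shown 5′ to 3′ on the gene's strand (RefSeq, GRCh38.p14), with the motif in capitals, to show the motif in its setting in the genes compared below. The windows are chr4:73740419-73740568 for CXCL8 (plus strand), chr4:73869243-73869392 for CXCL1 (plus), chr4:74099196-74099345 for CXCL2 (minus), chr4:74038690-74038839 for CXCL3 (minus), chr4:73998678-73998827 for CXCL5 (minus) and chr7:22727050-22727199 for IL6 (plus).
CXCL8: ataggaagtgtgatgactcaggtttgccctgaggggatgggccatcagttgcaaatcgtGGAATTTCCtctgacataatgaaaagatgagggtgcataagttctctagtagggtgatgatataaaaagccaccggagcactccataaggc
CXCL1: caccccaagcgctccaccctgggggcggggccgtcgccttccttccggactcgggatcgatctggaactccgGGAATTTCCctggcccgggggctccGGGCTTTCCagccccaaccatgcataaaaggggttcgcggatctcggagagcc
CXCL2: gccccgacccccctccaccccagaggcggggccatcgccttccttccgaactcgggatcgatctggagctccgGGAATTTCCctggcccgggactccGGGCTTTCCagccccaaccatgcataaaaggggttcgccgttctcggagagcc
CXCL3: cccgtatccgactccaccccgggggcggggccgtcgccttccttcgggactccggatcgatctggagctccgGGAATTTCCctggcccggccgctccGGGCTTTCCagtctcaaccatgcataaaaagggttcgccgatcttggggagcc
CXCL5: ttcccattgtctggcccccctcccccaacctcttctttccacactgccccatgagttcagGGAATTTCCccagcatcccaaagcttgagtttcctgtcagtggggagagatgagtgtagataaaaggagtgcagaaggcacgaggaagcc
IL6: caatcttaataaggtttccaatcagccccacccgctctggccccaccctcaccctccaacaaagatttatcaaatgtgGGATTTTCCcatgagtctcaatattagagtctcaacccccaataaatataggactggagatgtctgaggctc
CXCL1, CXCL2 and CXCL3 held the motif at 2 places, GGAATTTCC and then GGGCTTTCC, and the latter lay 53 to 45 bases before the start in each of them. CXCL8, CXCL5 and IL6 held it at 1 place, as GGAATTTCC in the chemokines and GGATTTTCC in IL6. The AP-1 motif TGANTCA, found in 6.57% of all windows, was present in CXCL8 and IL1A. The C/EBP motif TTGCNNAA, found in 9.05%, was present in IL6, CXCL2 and IL1B. TATAAA, found in 10.7%, was present in CXCL8 and in 1 of the 2 IL1A windows. A match describes the letters of the window and is no evidence of binding. LIF and CCL2 had no promoter entry.

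Library totals ran from 10593934 to 20266996 counts, so that 3 counts, taken as the floor of detection, equal 0.148 to 0.283 CPM (counts scaled to the size of the library). HRAS was detected in every group, with mean normalised CPM of 214 in WT, 213 in WT with inducer, 185 in NS1 and 156 in NS1 with inducer. Epithelial keratins were abundant (summed epithelial markers 4018 to 10961 CPM), while CDH1 held at most 3 counts in any library. Of the urothelial markers (summed 63.7 to 213 CPM), UPK3A was at 0 and UPK1B at 3 counts or fewer throughout, while GATA3 averaged 29.8 to 78.2 CPM and PPARG 51.5 to 92.9 CPM over the groups. Among leukocyte markers, ITGAM was at 0 and PTPRC and CD3E at 3 counts or fewer in every library, while CD68 averaged 12.5 to 19.2 CPM and CD14 0.723 to 1.88 CPM over the groups.

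Replicate 1 of WT was low for these genes, and it bears on every comparison with WT. In both WT groups, replicate 1 was at or below 0.5 times each of the other replicates for 9 of the 9 members that passed the count filter, against 208 of 17775 genes tested (1.17%). In untreated WT, the mean of replicates 2 and 3 exceeded replicate 1 by 17.9 times for IL6, 7.49 times for CXCL3, 6.34 times for CXCL5 and 2.69 times for LIF. In untreated NS1 the same ratio ran from 0.87 for CXCL2 and 1.07 for CXCL8 to 2.39 for IL1A and 2.41 for CXCL5, with 1.45 for IL6. In NS1 with inducer it was above 1 for each of the 9 members, from 1.27 for IL1B to 4.16 for CXCL5. Replicate 1 thus bears on the inducer comparison within NS1 too. The labels name no batch for the replicate numbers, replicate 1 libraries had the higher totals (15627546 to 20266996 counts), and their part in the results was not tested. Each comparison is therefore given with and without replicate 1.

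**Figure D1:**
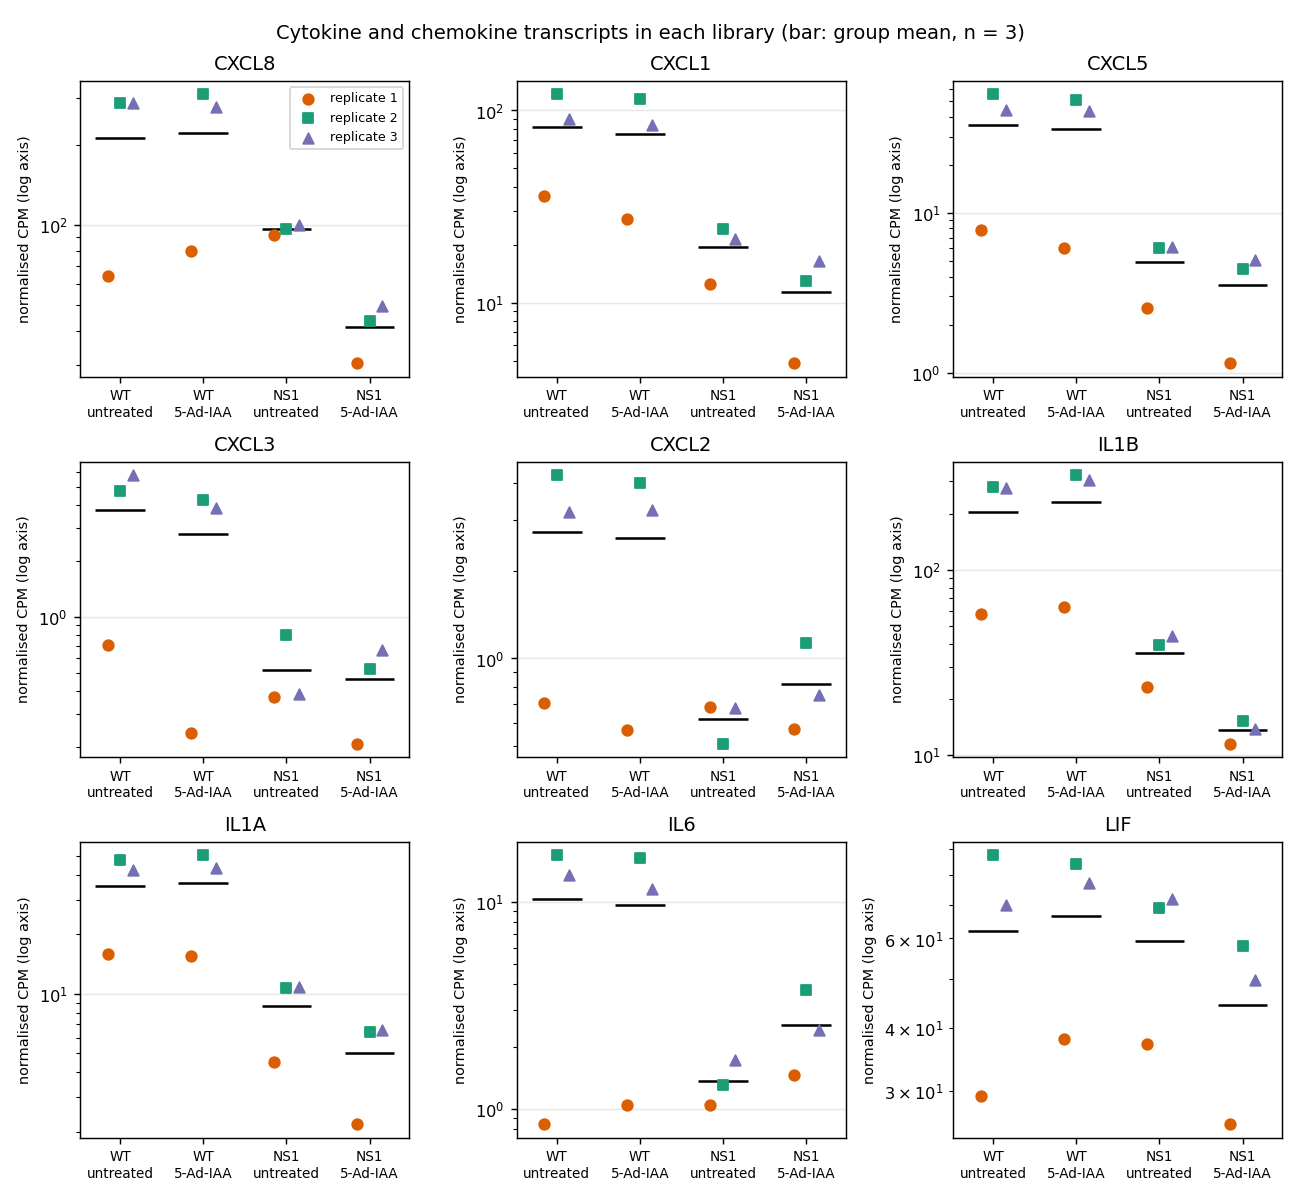
Normalised CPM of the 9 tested genes (CCL2 is not drawn) on a log10 axis in the 4 groups, 1 point per library with its replicate number and a bar at the group mean. Replicate 1 lies below the other WT libraries for the 9 tested genes, and the NS1 libraries of IL1B, with and without inducer, sit below every WT library.

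Per kilobase of exon, CXCL8 had the highest mean level in untreated WT cells at 93.2 ± 56.2 CPM per kb (SD, n = 3). IL1B (65.8 ± 40.9) and CXCL1 (63.5 ± 33.3) followed. These SDs overlapped, but they measure spread between libraries, and differences between genes were not tested. In replicates 1, 2 and 3, CXCL8 read 28.3, 126 and 126 CPM per kb, IL1B 18.6, 89.7 and 89.3, and CXCL1 27.6, 93.5 and 69.4. CXCL8 was thus the highest of these 3 in each library. IL1A (16.5 ± 7.96), LIF (15.7 ± 7.52) and CXCL5 (14.0 ± 9.75) formed a middle tier with overlapping spreads, IL6 stood at 5.00 ± 4.05, and CXCL2 (1.82 ± 1.22) and CXCL3 (1.69 ± 1.21) came below it. In untreated NS1 cells, CXCL8 still came first at 42.3 ± 1.70 CPM per kb, and CXCL1 (15.0 ± 4.77), LIF (14.9 ± 4.84) and IL1B (11.4 ± 3.45) came next, with overlapping spreads. In NS1 cells with inducer, CXCL8 was at 18.2 ± 4.41 CPM per kb, LIF at 11.2 ± 4.20 and CXCL1 at 8.79 ± 4.59. Neighbours in this order overlapped in their SDs, though CXCL8 was above LIF in each library (13.3, 19.3 and 21.9 against 6.50, 14.6 and 12.5). CCL2 was near or under the floor in all groups: its counts were 1, 4 and 1 in WT, 3, 3 and 4 in WT with inducer, 0, 0 and 1 in NS1, and 0 in each library of NS1 with inducer. It did not pass the count filter, so it was not tested and no fold is given for it.

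Without inducer, NS1 cells held less IL1A, IL1B, CXCL1 and CXCL5 mRNA than WT cells, with log2 fold changes from -2.87 to -2.02. Of the 9 tested members, these 4 were called lower and 0 higher, where 7.05% of all genes were called lower (edgeR's quasi-likelihood test with Benjamini-Hochberg adjustment). The log2 fold change of all 9 was below 0, with a median of -2.08, while the median of all genes was 0.0000883. LIF, with a difference of -0.07 (SE 0.41, adjusted p = 0.941), showed no detectable difference.

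IL1B, the cytokine that caspase-1 matures for release, stood at 57.6, 278 and 276 CPM in WT replicates 1, 2 and 3, and at 23.4, 39.1 and 43.8 in NS1. Every NS1 library lay below every WT library, and the log2 fold change was -2.53 (SE 0.60, adjusted p = 0.0159). IL1A, which acts from within or at the surface of the cell as an alarm signal, read 15.8, 47.4 and 42.1 CPM in WT and 4.51, 10.8 and 10.8 in NS1. The groups again did not overlap, and replicate 1 was low in both lines, so that the log2 ratio of same-numbered libraries was even, between -2.14 and -1.81 (fold change -2.02, SE 0.53, adjusted p = 0.0242).

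The log2 fold changes of the chemokines were all below 0 in NS1, and CXCL1 and CXCL5 were called lower. CXCL1 measured 35.8, 121 and 89.9 CPM in WT and 12.5, 24.3 and 21.5 in NS1 (log2 fold change -2.08, SE 0.55, adjusted p = 0.0263). CXCL5 measured 7.82, 55.2 and 44.0 CPM in WT and 2.53, 6.03 and 6.16 in NS1 (-2.87, SE 0.81, adjusted p = 0.0352). For both genes the highest NS1 library lay below the lowest WT library. CXCL2 measured 0.703, 4.28 and 3.19 CPM in WT against 0.679, 0.509 and 0.673 in NS1, which did not overlap but did not pass the test (-2.06, SE 0.74, adjusted p = 0.0876). CXCL3 measured 0.703, 4.73 and 5.80 CPM in WT and 0.370, 0.80 and 0.385 in NS1 (-2.76, SE 0.94, adjusted p = 0.0727). CXCL2 and CXCL3 lie on few counts and share sequence: 7.07% of the 75-base windows of CXCL2 and 4.57% of those of CXCL3 occur in another gene, in CXCL1 or in each other, so reads could be split between them. CXCL8, the main neutrophil attractant among them, was uneven, at 64.4, 285 and 286 CPM in WT against a narrow 92.1, 96.8 and 99.7 in NS1. Replicate 1 of WT thus lay below all NS1 libraries and the other WT libraries far above, and the difference did not pass (-1.14, SE 0.50, adjusted p = 0.159).

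Neither of the gp130 ligands IL6 and LIF was called between the untreated lines. IL6 read 0.843, 16.7 and 13.4 CPM in WT and 1.05, 1.31 and 1.73 in NS1, and the log2 fold change of -2.91 (SE 1.00) missed the threshold (adjusted p = 0.0764). Replicate 1 of WT was the lowest of the 6 libraries for IL6. LIF read 29.3, 87.5 and 69.8 CPM in WT and 37.2, 69.0 and 71.7 in NS1, with overlapping groups. Reads over IL6 and LIF may include antisense or overlapping genes (STEAP1B for IL6, LIF-AS1 for LIF), since the use of strand in counting is not given in the sources used here.

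In all, 5 members did not overlap between the untreated lines, each lower in NS1 (CXCL1, CXCL2, CXCL5, IL1A and IL1B), where 16.2% of all genes were non-overlapping and lower. Without replicate 1, 8 of 9 members were called lower, all but LIF, where 10.8% of all genes were; CXCL8 was then -1.54 (adjusted p = 3.28e-06) and IL6 -3.33 (adjusted p = 1.88e-05). Without replicate 2, and without replicate 3, 0 members were called, with adjusted p of 0.199 or more for IL1A, IL1B, CXCL1 and CXCL5. Those fits called 204 and 182 genes in all, against 2222 with all replicates. Leaving out single libraries, the fit without WT replicate 1 called 8 members, with 1770 genes called in all. Among the 8 were IL1B (adjusted p = 0.00346), CXCL1 (0.0118), CXCL5 (0.0113), IL1A (0.0101) and CXCL8 (0.0249). Each of the other 5 left-out libraries ended the calls of CXCL1 (adjusted p 0.0629 to 0.0933), CXCL5 (0.0826 to 0.117) and IL1A (0.0564 to 0.0878). Those 5 fits called 1198 to 1780 genes in all. IL1B stayed called without WT replicate 2 (0.0483) and without NS1 replicate 3 (0.0447), and not without NS1 replicate 1 (0.0612), NS1 replicate 2 (0.0538) or WT replicate 3 (0.0532). Beside this comparison, summed endothelial markers were 1.16 to 3.37 CPM in WT and 0.0617 to 1.06 CPM in NS1, and leukocyte markers 14.9 to 26.8 and 8.39 to 16.3 CPM, and their part in it was not tested.

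With inducer in both lines, NS1 cells were lower than WT cells for IL1A, IL1B, CXCL1, CXCL5 and CXCL8, with log2 fold changes from -4.08 to -2.43. These 5 of 9 members were called lower and 0 higher, where 14.5% of all genes were called lower, and the median over the 9 was -2.58. In the same 5, and in no other member, the NS1 libraries all lay below the WT libraries, which 22.2% of all genes did.

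IL1B showed the widest gap of the 9, at 63.0, 323 and 304 CPM in WT and 11.5, 15.4 and 14.0 in NS1 (log2 fold change -4.08, SE 0.65, adjusted p = 0.000578). IL1A read 15.6, 50.2 and 43.4 CPM against 2.18, 6.37 and 6.56 (-2.89, SE 0.56, adjusted p = 0.00198). For both IL-1 genes the groups thus did not overlap, though the WT libraries were widely spread.

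Of the chemokines, CXCL8 read 80.0, 308 and 277 CPM in WT and 30.3, 43.8 and 49.9 in NS1 (-2.43, SE 0.53, adjusted p = 0.00417), and here replicate 1 of WT lay above all NS1 libraries. CXCL1 read 27.3, 114 and 84.3 CPM against 4.83, 12.9 and 16.4 (-2.75, SE 0.57, adjusted p = 0.00336). CXCL5 read 6.03, 50.7 and 43.8 CPM against 1.14, 4.45 and 5.07 (-3.29, SE 0.84, adjusted p = 0.0109). These calls come from the 3 chemokines with the most counts. CXCL3 (-2.58, SE 0.98, adjusted p = 0.0667) and CXCL2 (-1.65, SE 0.71, adjusted p = 0.102) did not pass, nor did IL6 (-1.93, SE 0.93, adjusted p = 0.138) and LIF (-0.58, SE 0.41, adjusted p = 0.317). Leaving out 1 library of the compared groups at a time, the 5 calls held in all 6 fits. The fit without WT replicate 1 called 8 members, with 4415 genes called in all. Without replicate 1 all 9 were called lower (17.1% of all genes). Without replicate 2 (1632 genes called in all), IL1B (adjusted p = 0.0333) and IL1A (0.0499) were called. CXCL8 (0.0976), CXCL1 (0.0698) and CXCL5 (0.130) were not. Without replicate 3 (2127 genes called in all), IL1B alone was called (0.0360). With all replicates 5007 genes were called. Beside this comparison, summed urothelial markers were 63.7 to 122 CPM in WT and 148 to 213 CPM in NS1, fibroblast markers 1.34 to 3.04 and 4.42 to 17.6 CPM, endothelial markers 0.72 to 2.04 and 1.35 to 4.07 CPM, and leukocyte markers 15.4 to 23.2 and 11 to 15.8 CPM, and their part in it was not tested.

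**Figure D2:**
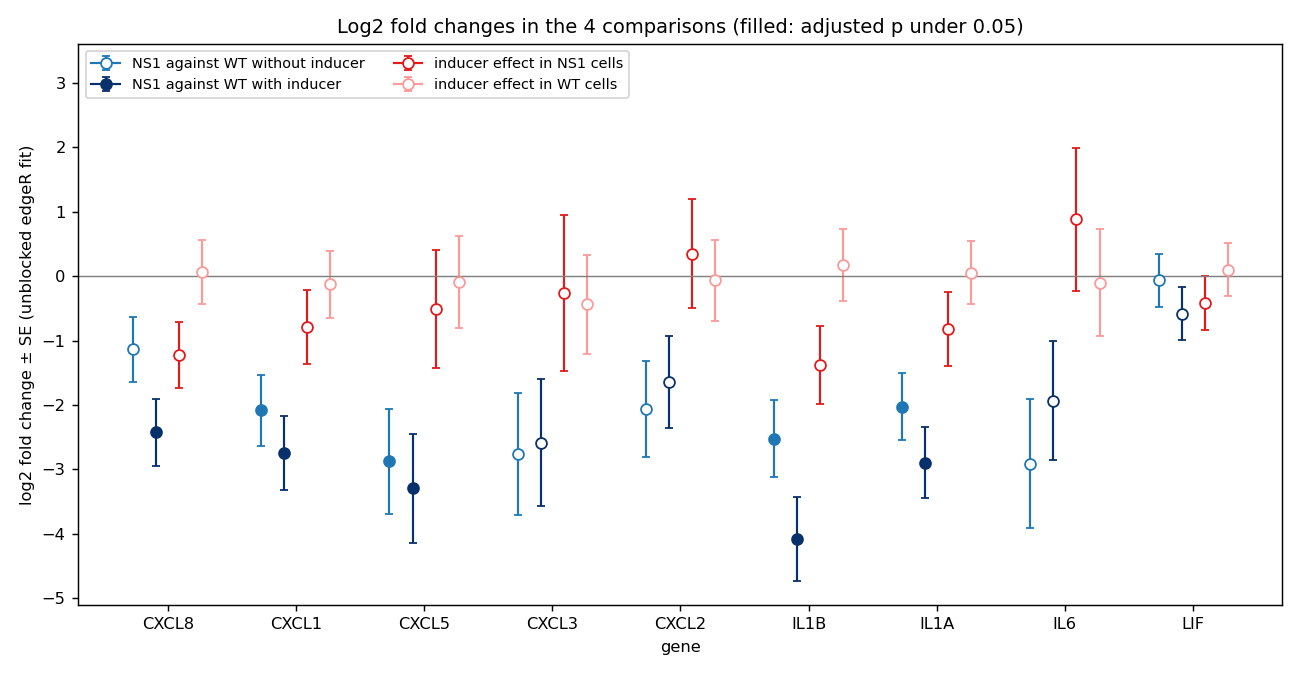
Log2 fold changes of the 9 tested genes with bars of 1 standard error in the comparisons of the model without block, filled where the adjusted p is under 0.05. The points of NS1 against WT lie below 0 in both treatments, and those of the inducer in WT lie close to 0.

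Within NS1 cells, the libraries with inducer had lower levels of IL1B, CXCL8, IL1A, CXCL1, LIF and CXCL5 and a higher level of IL6, in a fit that compares same-numbered libraries. In the model without block, 0 of the 9 members were called, where 6.15% of all genes were; CXCL8 and IL1B had an unadjusted p under 0.05, as did 20.8% of all genes. Same-numbered treated and untreated libraries of a line deviated together, so the replicate number was also fitted as a block within each line. That fit called 6 members lower and 1 higher, where 12.8% of all genes were called lower and 25.9% called in either direction.

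CXCL8 read 92.1, 96.8 and 99.7 CPM without inducer and 30.3, 43.8 and 49.9 with it, and the groups did not overlap. Its log2 fold change was -1.22 without block (SE 0.51, adjusted p = 0.186) and -1.25 with it (SE 0.10, adjusted p = 1.33e-06). IL1B went from 23.4, 39.1 and 43.8 CPM to 11.5, 15.4 and 14.0, again without overlap (-1.38, SE 0.61, adjusted p = 0.215; blocked -1.33, SE 0.11, adjusted p = 8.02e-07). CXCL8 and IL1B were the 2 members whose NS1 groups were separated, where 14.0% of all genes were separated and lower. Without replicate 1, CXCL8 (-1.07, adjusted p = 0.000136), IL1B (-1.49, adjusted p = 2.96e-05) and IL1A (-0.73, adjusted p = 0.00999) were called lower in the model without block, where 5.22% of all genes were.

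The other 4 that fell under the block did so in every replicate by smaller amounts, with overlapping groups. IL1A went from 4.51, 10.8 and 10.8 CPM to 2.18, 6.37 and 6.56 (-0.82, SE 0.57, adjusted p = 0.475; blocked -0.81, adjusted p = 0.000236). CXCL1 went from 12.5, 24.3 and 21.5 CPM to 4.83, 12.9 and 16.4 (-0.79, SE 0.57, adjusted p = 0.489; blocked -0.85, adjusted p = 0.000508). LIF had shown no detectable difference between the untreated lines. With inducer it went from 37.2, 69.0 and 71.7 CPM to 25.8, 57.9 and 49.7 (-0.42, SE 0.41, adjusted p = 0.641, and blocked -0.43, adjusted p = 0.00257). The ratio of LIF between same-numbered libraries was narrow, -0.53 to -0.25. CXCL5 went from 2.53, 6.03 and 6.16 CPM to 1.14, 4.45 and 5.07 (-0.51, SE 0.91, adjusted p = 0.819; blocked -0.53, adjusted p = 0.0409).

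IL6 moved the other way at a low level, from 1.05, 1.31 and 1.73 CPM to 1.46, 3.75 and 2.41, and was higher in each of the 3 same-numbered pairs, by 0.47 to 1.52. Its fold change was 0.88 (SE 1.10, adjusted p = 0.725) without block and 0.87 (adjusted p = 0.0210) with it. CXCL2 (0.679, 0.509 and 0.673 CPM without inducer, 0.572, 1.13 and 0.747 with it) and CXCL3 (0.370, 0.80 and 0.385, then 0.208, 0.524 and 0.664) were not called by either fit (blocked adjusted p = 0.555 and 0.776). With a single block per replicate number over both lines, 5 members were called, all lower (IL1A, CXCL1, LIF, CXCL8 and IL1B, adjusted p 0.00168 to 0.0384), where 7.12% of all genes were called lower. Beside these results, summed endothelial markers went from 0.0617 to 1.06 CPM in NS1 libraries to 1.35 to 4.07 with inducer, and fibroblast markers from 0.679 to 3.20 CPM to 4.42 to 17.6, with DCN at 0 and 3 of the 4 fibroblast markers at 3 counts or fewer throughout. Summed urothelial markers went from 97.6 to 114 CPM without inducer to 148 to 213 CPM with it. Leukocyte markers ran from 8.39 to 16.3 CPM without inducer and from 11 to 15.8 with it. The part of these markers in the result was not tested, and in bulk RNA fewer cells of a type cannot be told apart from less RNA per cell.

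In WT cells the inducer left these genes without a detectable difference. CXCL8 read 64.4, 285 and 286 CPM without inducer and 80.0, 308 and 277 with it, and IL1B 57.6, 278 and 276 against 63.0, 323 and 304. LIF was at 29.3, 87.5 and 69.8 CPM against 37.9, 84.3 and 77.4. Across the 9 members the log2 fold changes ran from -0.44 (CXCL3) to 0.18 (IL1B), adjusted p was 1 for each, and no group pair was separated. Among all genes tested, 0 were called (0%), with or without the block (edgeR), and 94 had an unadjusted p under 0.05. Without replicate 1 the count was also 0 of all genes, and adjusted p was again 1 for each of the 9 members.

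The difference between the inducer's effects in the lines was itself tested. The model without block called 0 of the 9 members, where it called 4 genes in all (0.0225%), and 2196 genes had an unadjusted p under 0.05. Without replicate 1 it called IL1B (-1.68, adjusted p = 0.000513), CXCL8 (-1.1, adjusted p = 0.00323) and IL1A (-0.80, adjusted p = 0.0458), where 3.24% of all genes were called. With the block within each line, 6 of 9 were called, where 14.0% of all genes were. IL1B (-1.5, adjusted p = 1.28e-05) and CXCL8 (-1.37, adjusted p = 4.12e-05) had the most negative differences, followed by IL1A (-0.85, adjusted p = 0.00150), CXCL1 (-0.67, adjusted p = 0.0223) and LIF (-0.58, adjusted p = 0.00645). IL6 had a positive one (0.95, adjusted p = 0.0451). In the same fit the inducer estimates in WT were 0.16 for IL1B, 0.12 for CXCL8, 0.04 for IL1A, 0.15 for LIF, -0.18 for CXCL1 and -0.08 for IL6, with 0 of them called. With a single block per number over both lines, IL1A was the 1 member called (adjusted p = 0.0173), where 3.57% of all genes were. The NS1 comparisons share libraries with each other, and their values are given side by side only.

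The 5 CXCL members lie on chromosome 4 within a cluster of related genes (GRCh38.p14, RefSeq). CXCL8 (73740569 to 73743716) comes first, then CXCL6, PF4V1, CXCL1 (73869393 to 73871308), PF4, PPBP, CXCL5 (73995642 to 73998677), CXCL3 (74036589 to 74038689) and CXCL2 (74097040 to 74099195). The platelet chemokine genes of the cluster were not detected: PF4V1 and PPBP had 0 counts in all libraries, and PF4 at most 1. CXCL6, another ELR chemokine, averaged 45.3 ± 16.8 CPM in WT and 15.9 ± 5.22 in NS1 (SD, n = 3; log2 fold change -1.51, adjusted p = 0.0323). Beyond CXCL2, the metabolic enzyme gene MTHFD2L showed a difference of 0.08 between the untreated lines (adjusted p = 0.861), and the EGF family ligand EREG one of -0.35 (adjusted p = 0.291). With inducer these were -0.50 (adjusted p = 0.106) and -0.72 (adjusted p = 0.0197). IL1A (112773925 to 112784493) and IL1B (112829751 to 112836779) are neighbours on chromosome 2. IL6 lies on chromosome 7 (22727200 to 22731998), LIF on chromosome 22 (30240453 to 30246759) and CCL2 on chromosome 17 (34255285 to 34257203).

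**Figure D3:**
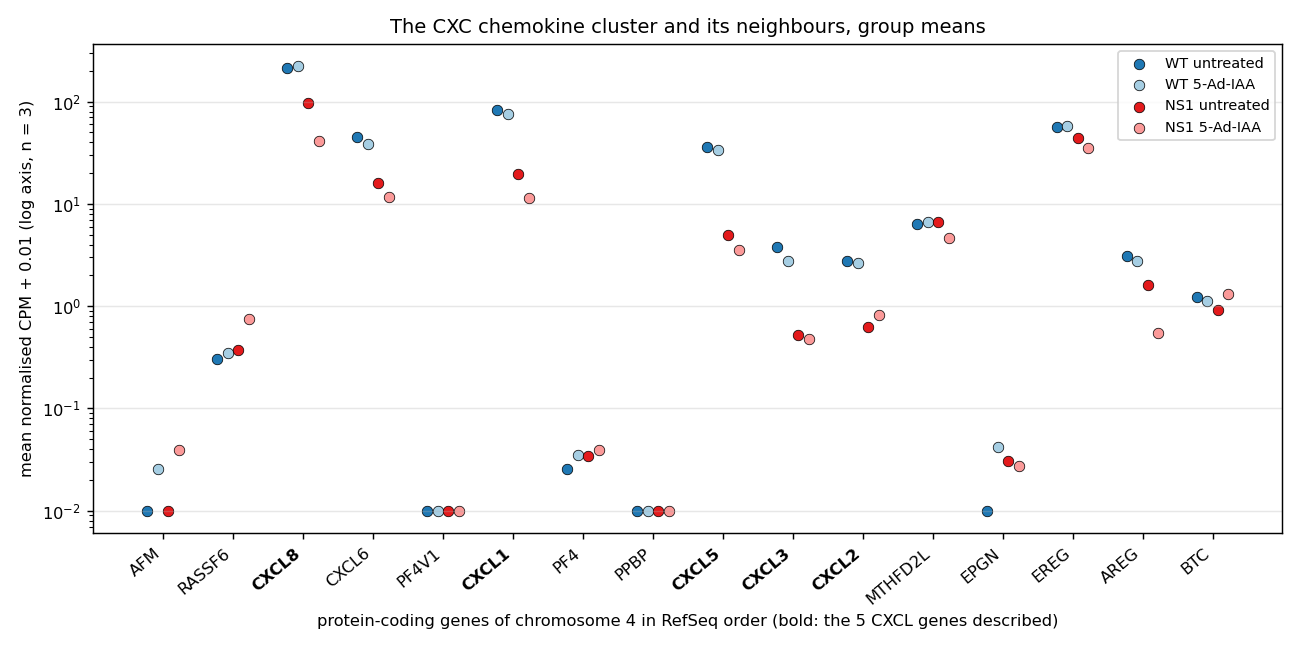
Mean normalised CPM plus a small offset, on a log10 axis, of the genes of the chromosome 4 cluster and its neighbours in their order along the chromosome, 1 point per group. The NS1 groups lie below the WT groups at CXCL8, CXCL6, CXCL1, CXCL5, CXCL3 and CXCL2. PF4V1 and PPBP, with a mean of 0 in all groups, are drawn at the offset.

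The receptors of these ligands showed 0 calls among 6 tested in either comparison of the lines. IL6ST, the shared gp130 subunit, averaged 199 CPM in WT and 174 in NS1, OSMR 78.6 and 71.7, LIFR 12.1 and 15.4, and IL1RAP 19.6 and 24.8. CXCR1 and the chemokine scavenger ACKR1 had 0 counts in all 12 libraries, CXCR2 at most 2 and CCR2 at most 1, which 3 counts as the floor leaves undetected. The IL-1 antagonist IL1RN and the decoy receptor IL1R2 held at most 1 count in a library. Of 5 tested decoys, antagonists and processing enzymes, SIGIRR (-0.57), CAPN1 (-0.42) and CASP1 (-1.11), the protease that matures IL-1 beta, were called lower in untreated NS1 and CAPN2 (0.43) higher. SIGIRR and CASP1 were also called lower with inducer.

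Other ligands followed the members in part. Of 15 tested, 4 were called lower and 0 higher in untreated NS1, with a median of -1.51: CCL5 (-2.59, adjusted p = 0.00452), CXCL6, CSF3 (-3.62, adjusted p = 0.0364) and CXCL11 (-2.30, adjusted p = 0.0452). CXCL11 averaged 0.942 CPM in untreated WT and 0.197 CPM in untreated NS1, where it held at most 4 counts in a library, near the floor. CSF3, the granulocyte colony-stimulating factor, averaged 39.5 ± 32.0 CPM in WT and 3.29 ± 2.07 in NS1, and with inducer 39.8 ± 33.5 and 0.596 ± 0.299 (-6.15, adjusted p = 0.00361). With inducer CCL5 (-2.07) and CXCL6 (-1.75) were lower in NS1 and IL18 (0.75) and CSF1 (0.90) higher. Within NS1 the inducer lowered IL11, a gp130 ligand, from 56.0 ± 7.57 to 19.2 ± 0.697 CPM (-1.55 on the log2 scale, SE 0.34, adjusted p = 0.0183) and raised CXCL16 (0.72, adjusted p = 0.0415), 1 called in each direction. With the block within each line, 5 of these ligands were called higher and 3 lower.

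Transcription factors and NF-kB targets had values above 0 under the inducer in NS1 more often than below it (8 of 10 and 9 of 9). Between untreated lines, IRF1 (-1.11, adjusted p = 0.000594) and STAT3 (-0.40, adjusted p = 0.0136) were called lower among 10 transcription factors, and BIRC3 (-1.92, adjusted p = 0.0235) and TNFAIP2 (-0.58, adjusted p = 0.0294) among 9 NF-kB feedback genes and targets. With the inducer in NS1, the log2 fold changes of the NF-kB genes had a median of 0.26 against -0.51 for the members. In that comparison 0 of the 9 were called without block and 4 were called higher with it: NFKBIA (0.51), TNFAIP2 (0.40), BIRC3 (0.99) and TNIP1 (0.26). IRF1 rose in NS1 with inducer from 12.8 ± 0.907 to 18.8 ± 1.13 CPM (0.56, adjusted p = 0.0407) as the 1 transcription factor called without block. With inducer in both lines, 0 NF-kB genes were called, CEBPD was higher in NS1 (0.60) and IRF1 lower (-0.42).

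Of 5 genes downstream of STAT3, BCL3 (-1.06, adjusted p = 0.00451) and SOCS1 (-2.57, adjusted p = 0.0305) were lower in untreated NS1. BCL3 then rose with inducer in NS1 from 3.42 ± 0.552 to 8.48 ± 0.292 CPM (1.29, adjusted p = 0.00390). With inducer in both lines PIM1 was higher in NS1 (1.00) and SOCS3 lower (-0.66). Of 8 genes listed for a part in the turnover of cytokine transcripts, 0 were called between untreated lines, and with inducer ZFP36 was higher in NS1 (0.58). Of 8 other genes of senescence-associated secretion, 0 were called between untreated lines and 3 were lower in NS1 with inducer: AREG (-2.39), PLAUR (-1.45) and MMP1 (-5.51). Over all 66 tested genes of these lists, 1 was called higher and 13 lower between untreated lines, and 5 and 10 with inducer in both lines. For the inducer in NS1 these were 3 and 1 (21 and 15 with the block within each line). Of all genes, 7.05% were called lower between untreated lines and 14.5% with inducer in both lines. For the inducer in NS1, 6.15% were called in either direction (25.9% with that block). The 10 lower with inducer, and the 3 and 1 without block, are near those shares. The shares apply to each list above.

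Across the 12 libraries the levels of the 9 tested members ran in parallel to different degrees. Pearson's r of log2 CPM between member pairs lay between 0.65 (LIF and IL1B) and 0.99 (CXCL1 and IL1A). This is a description over libraries that share replicate numbers and groups, and no p is given. Among all genes averaging at least 1 CPM, those most like CXCL1 were IL1A, CXCL6 and CXCL5 (0.99, 0.99 and 0.98), and those most like IL6 were CXCL2, DNAJB9 and SWAP70 (0.97 each). CSF3 was the gene most like IL1B (0.99), C2CD2L the one most like CXCL8 (0.98) and CSNK1E the one most like LIF (0.96).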

How the data were processed

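Poly(A) RNA of T24 cells was sequenced in 12 libraries with a 75-cycle kit according to the labels. The file the authors deposited is 1 table of read counts per gene, whole numbers that are not normalised. Per the submitters' processing notes, STAR 2.7.3a, featureCounts 1.6.4 and hg38 were used; the annotation, the use of strand and the handling of reads that map to several genes are not given in the sources used here. Columns were matched to libraries by name.

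The analysis used edgeR 4.0.16 (R 4.3.3): filterByExpr over the 4 groups kept 17775 genes, libraries were scaled by TMM, and 1 quasi-likelihood model of the 12 libraries was tested for 5 contrasts, two-sided. Calls are genes whose p, adjusted by Benjamini and Hochberg over the 17775 genes, was under 0.05. Normalised CPM uses the TMM-scaled totals, and CPM per kilobase uses the exon union of GENCODE 29. Group errors are SD with n = 3. Same-numbered libraries of a line deviated together (correlations of deviations 0.384 to 0.713 in NS1 and 0.256 to 0.752 in WT, each over 0.1), so blocked values stand beside the inducer results whose call they change; between lines the correlations were 0.006 to 0.190. Alternatives were RLE scaling, library totals, other filters on low counts, DESeq2 1.42.0, the groups compared alone, replicate blocks, and leaving out replicates and libraries.

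The members and the lists of related genes were chosen with earlier results of these data known. Named beside the members were up to 4 genes of each list called in a comparison, lowest adjusted p first, genes of the chromosome 4 cluster, and receptors and antagonists near the floor; other genes named with the block fit, and receptors named with their levels, were chosen after their values were seen. SOD2 had no matched identifier, and 81 of 82 listed genes were matched. A leukocyte marker is not reported here.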

Additional observations from a re-analysis of the deposited data

Results flagged for a closer look

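For 6 of the 9 tested members the inducer's effect was called different between NS1 and WT cells, where 14.0% of all genes were. This interaction was tested with the replicate number as a block within each line (edgeR, adjusted over all genes). The differences on the log2 scale were -1.5 for IL1B, -1.37 for CXCL8, -0.85 for IL1A, -0.67 for CXCL1, -0.58 for LIF and 0.95 for IL6. The model without block called 0 of them with all replicates (all genes 4), as did DESeq2 (all genes 377). Without replicate 1 the model without block called IL1B (-1.68, adjusted p = 0.000513), CXCL8 (-1.1, adjusted p = 0.00323) and IL1A (-0.80, adjusted p = 0.0458), where 3.24% of all genes were. With a single block per number over both lines, IL1A alone was called, where 3.57% of all genes were. Groups of 3 libraries were too small to test for outlying libraries.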

How the results depend on the processing

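The direction of the NS1 to WT differences held under every alternative run for the 9 tested members except LIF without inducer, which was 0.00498 with the replicate block and ran from -0.41 to 0.27 over the fits that left out replicates or libraries. Same-numbered libraries of the 2 lines were not paired by the check, so the block is only a hint there: it moved members called from 4 to 7 (all genes 2222 to 3908) without inducer and from 5 to 9 (all genes 5007 to 6670) with inducer. No block within each line could be fitted for these comparisons, since the line difference lies between such blocks. Members called without inducer were 8 with no low-count filter (all genes 2978) and 7 with DESeq2 (all genes 2454), and 0 to 8 in the leave-out fits (all genes 182 to 3466). With inducer they were 10 with no low-count filter (all genes 5471), which also tested CCL2, and 1 to 9 in the leave-out fits (all genes 1632 to 6007).

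For the inducer in NS1, members called went from 0 to 5 with no low-count filter, 5 with the replicate block, 7 with the replicate block within each line and 2 with only the groups compared, and were 0 to 3 in the leave-out fits. All genes called went from 1093 to 1801, 2421 and 4596 in the first 3 of these, and were 0 to 2021 in the leave-out fits. Leaving out replicates or libraries gave -0.058 to 0.68 for CXCL2 and -0.75 to 0.20 for CXCL3. For the interaction, all genes called went from 4 to 7 with RLE scaling, 683 with no low-count filter, 33 with at least 10 counts in every library, 634 with the replicate block, 2495 with the block within each line, 377 with DESeq2 and 0 to 573 in the leave-out fits. Members called went from 0 to 3, 1 and 6 with no low-count filter, the replicate block and the block within each line, and were 0 to 3 in the leave-out fits, where CXCL2 ran from -0.15 to 0.94, CXCL3 from -0.45 to 0.79 and CXCL5 from -0.94 to 0.079. For the inducer in WT, where 0 genes were called in every fit that left out replicates or libraries, the signs changed for each member in those fits: IL6 -0.77 to 0.50, LIF -0.25 to 0.44, CXCL8 -0.37 to 0.47, CXCL1 -0.57 to 0.28, CXCL2 -0.59 to 0.49, CXCL3 -0.99 to 0.19, CXCL5 -0.58 to 0.42, IL1A -0.31 to 0.43 and IL1B -0.27 to 0.63. The cause of these shifts was not tested. Scaled by library totals and not TMM, the share of calls that were higher went from 44.8% to 32.8% for the inducer in NS1, from 43.6% to 36.8% between untreated lines and from 48.5% to 36.9% with inducer. CXCL2, CXCL3 and IL6 in NS1, CXCL11 and SOCS1 in untreated NS1, and CCL2 in all groups rest on few counts, which limits their precision.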
